A study of Mus musculus with 9 samples.

Results

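The heat shock and folding chaperones are proteins that bind unfolded or partly folded chains, help them reach their native form and keep them from aggregating. The set described here holds 44 genes, chosen by name, and takes in every probe set of the array table annotated to 1 of them. Of the 44 genes, 42 had a named probe set, 96 probe sets in all of the 22690 on the array. Signals of 83 of these probe sets were bright enough to test, and they covered 41 genes. Stip1, which encodes the adaptor between Hsp70 and Hsp90, had a single probe set below the filter on dim signals (59.0 to 123 on the 9 arrays), and Hsp90ab1 and Hspa13 were not analysed here. The 44 genes fall into 9 stress-inducible cytosolic chaperones, 10 constitutive cytosolic ones, 7 subunits of the cytosolic chaperonin, 5 mitochondrial chaperones and 13 of the endoplasmic reticulum (ER).

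The series holds 9 Affymetrix mouse arrays, 3 for each of 3 kinds of cell sorted from or grown out of bone marrow. GMP are granulocyte-macrophage progenitors of normal marrow, and L-GMP are cells resembling them, sorted from leukemic marrow, the leukemia being that of the fusion gene MLL-AF9. The other arrays, called L-GMP-derived, have only a code for a title, list L-GMP as source and were read as cells grown in vitro from L-GMP because the design of the study names that kind and no other label matches it, which limits every statement about them. About 50000 sorted cells were lysed per sample and about 50 ng of total RNA was labelled. The labels name no treatment, and the sources used here do not give strain, age, the vector of the fusion gene or the culture conditions. They also do not say whether arrays of a group are separate animals or cultures, so p-values cover only the spread among arrays, which may be technical.

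In the cytosol, Hsp70 proteins bind exposed stretches of a chain with the help of J-domain partners, Hsp90 proteins finish the folding of kinases and receptors, and the ring-shaped chaperonin TRiC encloses actin, tubulin and other chains. Mitochondria and the ER have Hsp70 and Hsp90 forms of their own, mitochondria add the Hsp60 and Hsp10 ring, and the ER adds the lectins calnexin and calreticulin and the disulfide isomerases. Heat shock factor 1 switches on the inducible cytosolic and some mitochondrial genes through heat shock elements, while ER chaperones answer to the unfolded protein response through ER stress elements. Dissociating and sorting tissue is known to induce Hspa1a, Hspa1b and immediate early genes in many cell types.

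Promoters of many, but not all, of the inducible and ER genes hold matches to these elements, and some are shown here as a description. Whether the elements bear on the array signals was not tested. RefSeq promoter windows (assembly GRCm38.p6, 250 bases before to 50 after the start, 300 bases) were given for 37 of the 44 genes and searched on both strands. A heat shock element of 2 units (GAANNTTC or TTCNNGAA) lay in 15.1% of all 32851 windows, in 7 of 8 inducible genes and in 0 of 11 ER genes. It also lay in 2 of 4 mitochondrial genes (Hspd1 and Hspe1), 2 of 6 chaperonin subunits (Cct2 and Cct5) and 1 of 8 constitutive genes (Dnaja1). The inducible gene without it was Dnajb1, and the matches of Bag3 and Hspb8 lay after the start. The form with 3 units (GAANNTTCNNGAA or TTCNNGAANNTTC), which contains the shorter one, lay in 0.603% of all windows and in those of Hspd1, Hspe1 and Hsph1. An ER stress element (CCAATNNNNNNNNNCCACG) lay in 0.119% of all windows and in 6 of 11 ER genes, and its short form (ATTGGNCCACG), which lay in 0.0365% of all windows, in that of Dnajb11. The 3-unit match of Hsph1 and the short-form match of Dnajb11 also lay after the start. A match is a run of letters and does not show that a factor binds there. The stretches printed here lie before the start of the transcript, run 5′ to 3′ along the strand of the gene and have the element in capitals. Hspa1a, Dnajb4 and Hspd1 are shown as genes that changed in different ways, and Hspb1 as a gene with 2 elements that passed no test.
Hspa1a, chr17:34972157-34972280, minus strand: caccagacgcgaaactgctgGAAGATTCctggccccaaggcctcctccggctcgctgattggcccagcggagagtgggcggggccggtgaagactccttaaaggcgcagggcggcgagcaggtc
Dnajb4, chr3:152193846-152193879, minus strand: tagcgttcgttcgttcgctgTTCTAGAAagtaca
Hspd1, chr1:55087933-55088147, minus strand: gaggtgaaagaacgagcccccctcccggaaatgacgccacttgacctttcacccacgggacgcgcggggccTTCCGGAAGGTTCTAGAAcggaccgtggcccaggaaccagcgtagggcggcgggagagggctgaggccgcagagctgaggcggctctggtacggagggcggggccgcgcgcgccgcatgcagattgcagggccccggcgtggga
Hspb1, chr5:135887782-135887849, plus strand: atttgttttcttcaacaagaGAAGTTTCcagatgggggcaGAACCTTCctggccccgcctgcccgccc
The window of Hspa1b, which starts 12918 bases away on chromosome 17, is identical to that of Hspa1a at 296 of 300 bases (98.7%). The stretch of Hspd1 is the 215 bases between its start and that of Hspe1, which is read from the opposite strand, and its capitals are overlapping elements. Among ER genes, Hspa5, Hsp90b1 and Dnajc3 are shown as genes that were lower in L-GMP, and Calr and Canx as genes with the same element whose brightest probe sets passed no test.
Hspa5, chr2:34772005-34772089, plus strand: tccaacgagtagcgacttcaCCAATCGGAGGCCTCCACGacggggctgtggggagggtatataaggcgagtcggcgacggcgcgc
Hsp90b1, chr10:86705445-86705676, minus strand: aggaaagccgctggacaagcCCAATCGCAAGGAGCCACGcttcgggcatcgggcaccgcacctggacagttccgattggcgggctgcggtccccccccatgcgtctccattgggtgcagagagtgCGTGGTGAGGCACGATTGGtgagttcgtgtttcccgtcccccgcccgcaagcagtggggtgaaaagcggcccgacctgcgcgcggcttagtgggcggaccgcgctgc
Dnajc3, chr14:118937807-118937865, plus strand: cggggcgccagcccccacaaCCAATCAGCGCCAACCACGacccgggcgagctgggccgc
Calr, chr8:84847055-84847113, minus strand: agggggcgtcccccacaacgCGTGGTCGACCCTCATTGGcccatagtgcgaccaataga
Canx, chr11:50325780-50325838, minus strand: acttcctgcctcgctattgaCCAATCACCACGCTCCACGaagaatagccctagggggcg

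Several facts of the arrays bear on the values. L-GMP-derived replicate 1 stood apart, with correlations of 0.958 and 0.964 to the other arrays of its group, which correlated at 0.989. The 3′ to 5′ ratio of the beta-actin control, a sign of RNA integrity and labelling length, was 7.37 ± 0.648 (SD, n = 3) in GMP, 5.17 ± 0.355 in L-GMP and 7.10 ± 0.140 in L-GMP-derived cells (exact permutation p = 0.1 for each comparison with L-GMP, two-sided, the smallest that 3 against 3 arrays can give). That of the Gapdh control did not separate the groups, at 7.86 ± 0.855, 8.09 ± 3.05 and 7.21 ± 1.78 (exact permutation p = 1 for L-GMP against GMP, 0.6 for L-GMP-derived cells against GMP and 0.7 against L-GMP). All 9 markers of GMP lay above the filter in GMP and L-GMP, and 7 of 9 in L-GMP-derived cells. There Cd34 was at the floor and Kit read 67.0 to 110.2. Summed signals of the 9 were 37643 to 38312 in GMP, 29150 to 36569 in L-GMP and 27017 to 31699 in L-GMP-derived cells. Mpo read 9224 to 9476, 4647 to 6806 and 319 to 3581 in the same order of groups. Cebpa read 955 to 1347, 280 to 419 and 613 to 938. Cd34 read 495 to 631 in GMP and 189 to 436 in L-GMP. Csf2ra and Fcgr3 were higher in L-GMP (4378 to 4515 and 724 to 941) than in GMP (2784 to 2960 and 487 to 567). Summed signals of 5 macrophage markers were 1197 to 1291 in GMP, 6158 to 7562 in L-GMP and 892 to 1775 in L-GMP-derived cells. In L-GMP 3 of these 5, Adgre1, Vcam1 and Cd68, lay above the filter and Mrc1 was at the floor. Sums of 5 mast cell, eosinophil and basophil markers were 1003 to 1267, 3042 to 4791 and 139 to 231 in the same order of groups. That sum was carried in L-GMP by Prg2 (2425 to 2984, against 98.7 to 410.2 in GMP) and, on 2 arrays, by Cpa3 (245, 854 and 2206, against 579 to 640). Mcpt8 read 49.2 to 102 in L-GMP and 152 to 173 in GMP, and Fcer1a and Epx were at the floor in L-GMP. Sums of 4 T and NK cell markers were 2613 to 2894 in GMP, 1792 to 2270 in L-GMP and 596 to 1022 in L-GMP-derived cells. That step down was carried by Nkg7 (2372 to 2525, 1455 to 1871 and 247 to 286). Thy1 went the other way, at 25.5 to 48.1, 23.5 to 40.9 and 122 to 531. Cd3e was highest in L-GMP (173 to 262, 270 to 303 and 164 to 203), and Cd3g read no more than 73.0 on any array. Sums of 4 erythroid, 4 B cell and 4 megakaryocyte markers ran from 690 to 1165 in GMP and L-GMP and from 442 to 986 in L-GMP-derived cells. The part of any of these in the results that follow was not tested, and in bulk samples fewer cells of a type and less RNA per cell cannot be told apart.

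Many chaperone genes were lower in L-GMP than in GMP, and many were higher in L-GMP-derived cells than in L-GMP, while the inducible Hsp70 genes were lowest in L-GMP-derived cells. Of the 41 tested genes 19 were lower in L-GMP than in GMP and 0 were higher (limma, adjusted p under 0.05, each gene by its brightest tested probe set). Of all 8965 tested genes 12.8% were lower and 13.1% higher. At an unadjusted p of 0.05 the counts were 23 lower and 1 higher, Hspa2. The median log2 difference was -0.32 for the chaperones and -0.0075 for all genes. Between L-GMP-derived cells and L-GMP 20 were higher and 3 lower, against 16.6% and 14.1% of all genes, with medians of 0.23 and -0.0040. Between L-GMP-derived cells and GMP 4 were higher and 7 lower, against 13.4% and 10.7%, with medians of 0.012 and 0.0044. The 3 comparisons share arrays, so the fall and the rise around L-GMP rest on the same L-GMP signals and are not 2 independent observations.

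Counts moved with single arrays. Without L-GMP-derived replicate 1, 11 genes in place of 4 were higher in L-GMP-derived cells than in GMP, and without GMP replicate 2 or 3 the 7 lower ones fell to 4. Without L-GMP replicate 3 the 3 genes lower in L-GMP-derived cells than in L-GMP fell to 1, Dnajb4. Hspa2 passed the threshold as higher in L-GMP without L-GMP replicate 3 or without L-GMP-derived replicate 1.

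**Figure D1:**
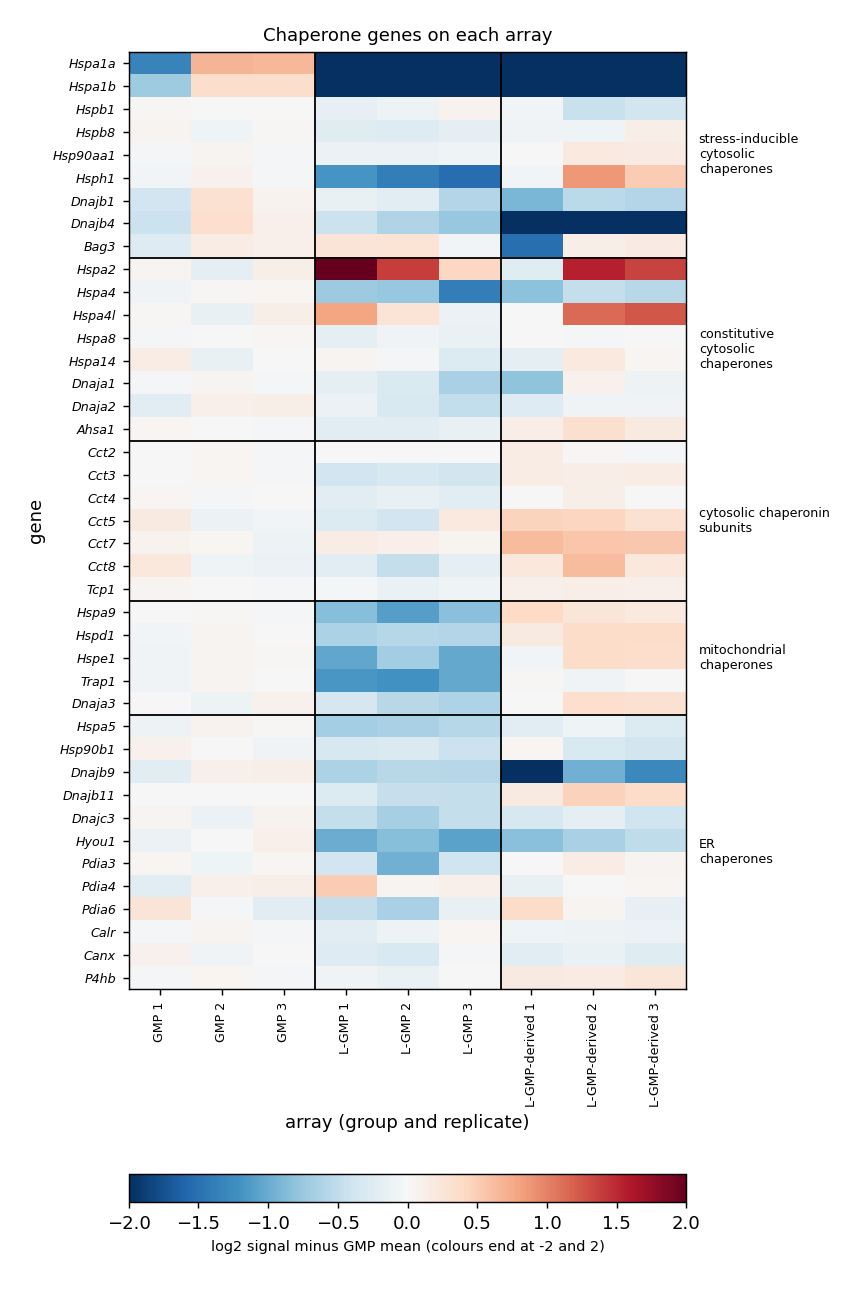
Log2 signal of the 41 tested chaperone genes (rows, grouped by class) on the 9 arrays (columns), minus the mean log2 signal of the 3 GMP arrays, with colours ending at -2 and 2 and signals below the floor of 62.4 set to it. Hspa1a and Hspa1b are blue in every L-GMP and L-GMP-derived array, and the 5 mitochondrial genes are blue in L-GMP and pale or red in L-GMP-derived cells.

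The largest differences were those of the inducible Hsp70 genes Hspa1a and Hspa1b, whose products are nearly the same protein. Hspa1a (probe set 1452388_at) read 1615, 6518 and 6423 on the 3 GMP arrays. It read 315, 89.1 and 182 in L-GMP and 16.7, 76.4 and 85.5 in L-GMP-derived cells. No L-GMP or L-GMP-derived array reached the lowest GMP array, which was replicate 1. The gene was 23.6-fold lower in L-GMP than in GMP (log2 fold change -4.56 ± 0.54 SE, adjusted p = 0.000175). In L-GMP-derived cells it was at least 54.9-fold lower than in GMP (-5.78 ± 0.54, adjusted p = 3.87e-05), where "at least" marks a lower group with arrays at the signal floor of 62.4. Its L-GMP and L-GMP-derived arrays did not overlap either, and their difference was not called (-1.22 ± 0.54, adjusted p = 0.121, and 0.0373 without GMP replicate 1). Without GMP replicate 1 the log2 differences from GMP were -5.23 and -6.45.

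Hspa1b (1452318_a_at) read 4251, 8880.1 and 8858 in GMP, 891, 221 and 370.1 in L-GMP, and 106, 189 and 141 in L-GMP-derived cells. The 3 groups did not overlap, and again GMP replicate 1 was the lowest GMP array. The gene was 16.6-fold lower in L-GMP (-4.06 ± 0.46, adjusted p = 0.000131) and 49.1-fold lower in L-GMP-derived cells than in GMP (-5.62 ± 0.46, adjusted p = 1.46e-05). It was 2.95-fold lower in L-GMP-derived cells than in L-GMP (adjusted p = 0.0265). That last call was lost in 7 of 20 alternative settings, among them the omission of L-GMP replicate 1 (adjusted p = 0.0724) or 3 (0.0533) and of L-GMP-derived replicate 1 (0.0566) or 3 (0.0671). Its other probe sets were likewise highest in GMP: 1427127_x_at read 2445 to 5489 in GMP, 92.8 to 441 in L-GMP and 21.8 to 76.9 in L-GMP-derived cells. The last, 1427126_at, read 323 to 1707 in GMP and no more than 64.4 elsewhere. It was at the floor on 2 L-GMP and all 3 L-GMP-derived arrays, and was not called between these groups (adjusted p = 0.988). Because the genes are near-identical, the arrays cannot be relied on to divide the signal between Hspa1a and Hspa1b.

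Immediate early genes, a list of transcription factors and phosphatases induced within minutes of stimulation, were followed beside the inducible Hsp70 genes. Of its 8 tested members 0 passed the test in L-GMP against GMP, where 12.8% of all genes were lower and 13.1% higher. Their median log2 difference there was -0.64, and 6 of the 8 were negative. In L-GMP-derived cells 5 were lower than in GMP (62.5%, against 10.7% of all genes) and 3 lower than in L-GMP (37.5% against 14.1%). Fos, which encodes a subunit of AP-1, read 1307, 6152 and 5691 in GMP, 3037, 869 and 3985 in L-GMP, and 2.40, 2.27 and -10.1 in L-GMP-derived cells. GMP replicate 1 was the lowest GMP array and L-GMP replicate 2 the lowest L-GMP array for both Fos and Hspa1a. Fos in L-GMP overlapped its range in GMP, while Hspa1a did not. Jun, Egr1 and the phosphatase gene Dusp1 likewise read lowest in GMP replicate 1 of their group (198, 146 and 369.6), and were at least 18.6-fold, 18.8-fold and 24.2-fold lower in L-GMP-derived cells than in GMP (adjusted p = 0.00549, 0.0101 and 0.00168). The part of sorting or handling in these signals was not tested.

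Dnajb4, which encodes an inducible J-domain partner of Hsp70, read 559, 952 and 813 in GMP (1451177_at), 560.2, 496 and 449 in L-GMP, and 14.6, 82.1 and 63.4 in L-GMP-derived cells. Its L-GMP-derived arrays lay far below all others. The gene was at least 11-fold lower there than in GMP (-3.46 ± 0.20, adjusted p = 1.05e-06) and at least 7.27-fold lower than in L-GMP (-2.86 ± 0.20, adjusted p = 5.3e-06). In L-GMP against GMP the ranges touched and the call was marginal (-0.60 ± 0.20, adjusted p = 0.0472). It was lost in 12 of the 21 alternative settings, among them the omission of GMP replicate 2 (0.176) or 3 (0.151), of any L-GMP array (0.0593 to 0.144) and of L-GMP-derived replicate 3 (0.0621). The second probe set, 1431734_a_at, read 247 to 286 in GMP, 267 to 294 in L-GMP and 208 to 259 in L-GMP-derived cells and passed no test. The fall of Dnajb4 therefore rests on 1 of its 2 probe sets. Dnajb1, which encodes another J-domain partner of inducible Hsp70, read 1596, 2586 and 2194 in GMP, 1882, 1774 and 1391 in L-GMP, and 1103, 1433 and 1388 in L-GMP-derived cells. Its groups overlapped around L-GMP, and it was 1.60-fold lower in L-GMP-derived cells than in GMP (adjusted p = 0.0208), a call lost without GMP replicate 2 or 3. A dimmer Dnajb1 probe set, 1416756_at, read 122 to 334 in GMP, 105 to 138 in L-GMP and 116 to 184 in L-GMP-derived cells. It passed no test.

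Hsph1 and Hsp90aa1 were higher in L-GMP-derived cells than in L-GMP. Hsph1, which encodes Hsp110, the nucleotide exchange factor of Hsp70, read 1312, 1446 and 1348 in GMP (1425993_a_at), 604, 523 and 476 in L-GMP, and 1319, 2484 and 1942 in L-GMP-derived cells. Every L-GMP array was below every other array. The gene was 2.57-fold lower in L-GMP than in GMP (-1.36 ± 0.20, adjusted p = 0.000645) and 3.49-fold higher in L-GMP-derived cells than in L-GMP (1.80 ± 0.20, adjusted p = 9.58e-05). Its second probe set was called in the same directions, at 2.5-fold and 2.97-fold. Hsph1 in L-GMP-derived cells was not called against GMP (0.44 ± 0.20, adjusted p = 0.137), but was without L-GMP-derived replicate 1 (0.68, adjusted p = 0.00397). Hsp90aa1, the inducible Hsp90, read 6504, 6872 and 6468 in GMP, 6097, 6079 and 6216 in L-GMP, and 6664, 7600.2 and 7375 in L-GMP-derived cells. It was 1.17-fold higher in L-GMP-derived cells than in L-GMP (0.23 ± 0.05, adjusted p = 0.00553), a call lost in a fit with no trend of the variance with intensity (0.078). Of its dimmer probe sets 1426645_at was called in that direction (1.22-fold, adjusted p = 0.0162) and 1438902_a_at was not (adjusted p = 0.0603). Against GMP, Hsp90aa1 was called in neither leukemic group (adjusted p = 0.14 and 0.1). Without L-GMP-derived replicate 1 it passed in both, as lower in L-GMP (-0.11, adjusted p = 0.0332) and higher in L-GMP-derived cells (0.18, adjusted p = 0.00596).

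The other 3 inducible genes passed no test. Hspb1, which encodes the small heat shock protein Hsp25, read 1003 to 1025 in GMP, 906 to 1065 in L-GMP and 740.0 to 971 in L-GMP-derived cells. Hspb8, its relative that works with Bag3 in autophagy of misfolded proteins, read 571 to 631, 507 to 526 and 571 to 659. Bag3, the co-chaperone that links them to Hsp70, read 149, 198 and 190.3 in GMP, 211, 215 and 170.5 in L-GMP, and 13.8, 192 and 198 in L-GMP-derived cells, with replicate 1 far below the others. In all, the 9 inducible genes gave 4 lower calls in L-GMP against GMP, Hspa1a, Hspa1b, Hsph1 and Dnajb4 (44.4%, against 12.8% of all genes). They gave 4 lower in L-GMP-derived cells against GMP, with Dnajb1 in place of Hsph1 (44.4% against 10.7%). Between the leukemic groups 2 were called in each direction (22.2% each, against 16.6% higher and 14.1% lower). The median log2 differences of the 9 genes were -0.32, -0.41 and -0.36. In these counts Hspa1a and Hspa1b may stand for the same signal, and the call of Dnajb4 in L-GMP against GMP was marginal.

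**Figure D2:**
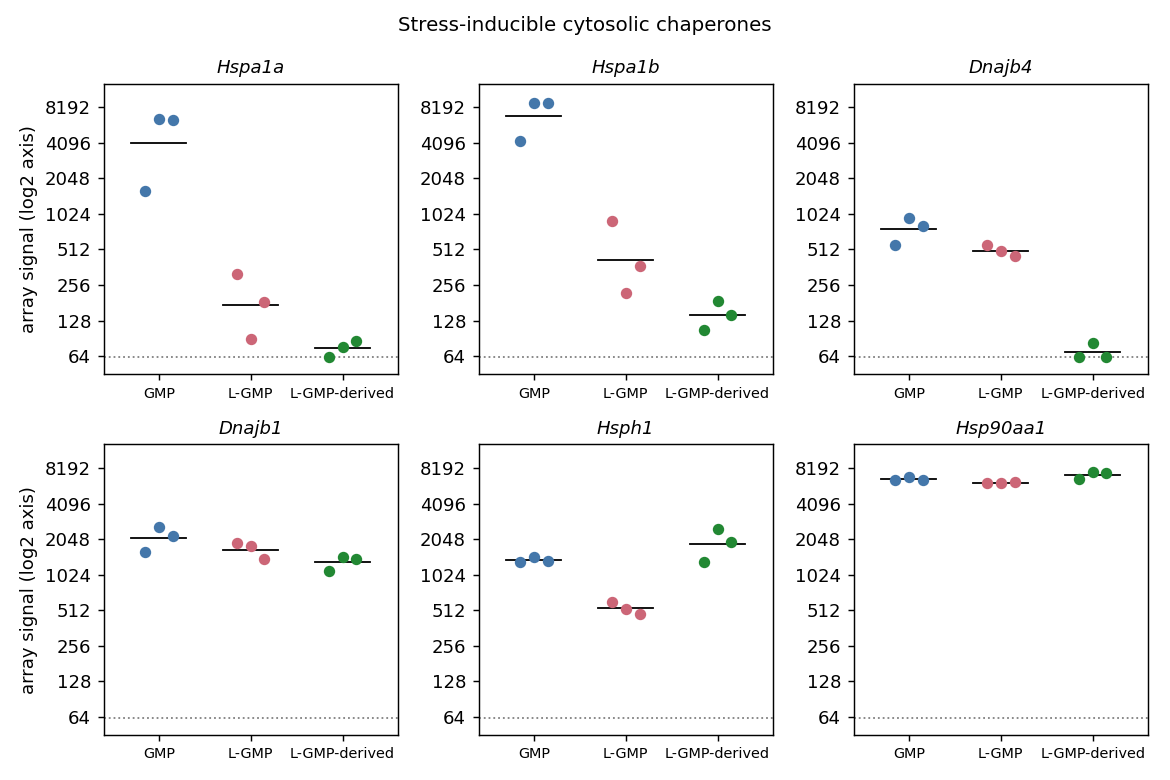
Array signal (log2 axis) of 6 stress-inducible cytosolic chaperones in GMP, L-GMP and L-GMP-derived cells. Points are single arrays, bars are means of the log2 signals, the dotted line is the floor of 62.4 and points below it are drawn on it. Hspa1a and Hspa1b are high in the 3 GMP arrays alone, Dnajb4 is near the floor in L-GMP-derived cells, and Hsph1 is lowest in L-GMP.

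Of 8 tested constitutive cytosolic chaperones, 2 were lower in L-GMP than in GMP (25%, against 12.8% of all genes). In L-GMP-derived cells 1 was lower than in GMP (12.5% against 10.7%) and 2 were higher than in L-GMP (25% against 16.6%). Hspa8, the constitutive Hsp70, read 9503, 9674 and 9826 in GMP (1455789_x_at), 8439.7, 9183 and 8769 in L-GMP, and 9695, 9432 and 9575 in L-GMP-derived cells. The L-GMP arrays lay below all others, by 1.10-fold against GMP (-0.14 ± 0.03, adjusted p = 0.0129) and 1.09-fold against L-GMP-derived cells (0.12 ± 0.03, adjusted p = 0.0194). A fit with no intensity trend ended both calls (adjusted p = 0.257 and 0.298). Omission of GMP replicate 3 ended the first (adjusted p = 0.0604), and that of L-GMP replicate 1 (0.0727) or 3 (0.0529) or L-GMP-derived replicate 3 (0.0518) the second. A dimmer Hspa8 probe set, 1431182_at, read 202, 889 and 748 in GMP, 96.9, 84.0 and 123 in L-GMP, and 111, 135 and 88.1 in L-GMP-derived cells. It was 5.13-fold lower in L-GMP and 4.66-fold lower in L-GMP-derived cells than in GMP (adjusted p = 0.00354 and 0.0055), with GMP replicate 1 the lowest of its group as for Hspa1a. The remaining 2 Hspa8 probe sets did not differ from GMP by the test.

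Hspa4, a relative of Hsp110, gave probe sets that disagreed. The brighter one, 1435194_at, read 3322, 3541 and 3571 in GMP, 2101, 2051 and 1339 in L-GMP, and 1978, 2509.7 and 2373 in L-GMP-derived cells. GMP was above both leukemic groups, by 1.94-fold over L-GMP (-0.95 ± 0.16, adjusted p = 0.00147) and 1.53-fold over L-GMP-derived cells (-0.61 ± 0.16, adjusted p = 0.0177). The other tested one, 1416146_at, read 400.1 to 527 in GMP, 446 to 518 in L-GMP, and 840.5, 1222 and 941 in L-GMP-derived cells. It was 2.17-fold higher in L-GMP-derived cells than in GMP (1.12 ± 0.16, adjusted p = 0.000682). Averaged over its probe sets, Hspa4 was 0.25 higher there on the log2 scale and passed no test (adjusted p = 0.193), so its direction in L-GMP-derived cells depends on the probe set. The call of the brighter one was lost without GMP replicate 2 (0.0612) or 3 (0.0676).

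Ahsa1, which encodes the activator of the Hsp90 ATPase, read 2207, 2144 and 2113 in GMP, 1862, 1835 and 1946 in L-GMP, and 2355, 2691 and 2452 in L-GMP-derived cells. Its groups did not overlap, and the rise from L-GMP to L-GMP-derived cells, 1.33-fold, passed the test (0.41 ± 0.08, adjusted p = 0.0023). Neither difference from GMP passed (adjusted p = 0.0814 in L-GMP and 0.0646 in L-GMP-derived cells). Hspa2, a form of Hsp70 known from the testis, read 207, 175 and 216 in GMP, 833, 516 and 265 in L-GMP, and 168, 585 and 506 in L-GMP-derived cells. It was above every GMP array on 5 of the 6 leukemic arrays but spread widely, and it was not called in L-GMP (1.29 ± 0.47, adjusted p = 0.0713). Hspa4l, Hspa14, which acts at the ribosome, and the J-domain genes Dnaja1 and Dnaja2 passed no test. Their log2 differences from GMP ran from -0.37 to 0.31 in L-GMP and from -0.27 to 0.79 in L-GMP-derived cells.

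Heat shock factors and cytosolic co-chaperones, a list of 25 further genes of which 18 were tested, gave 5 lower (27.8%, against 12.8% of all genes) and 1 higher in L-GMP than in GMP. In L-GMP-derived cells 8 were higher (44.4% against 16.6%) and 0 lower than in L-GMP, and 2 were higher (11.1% against 13.4%) and 0 lower than in GMP. Bag2, a nucleotide exchange factor of Hsp70, read 316, 268 and 309 in GMP, 118, 121 and 163 in L-GMP, and 302, 514 and 417 in L-GMP-derived cells. The L-GMP arrays were the lowest, by 2.24-fold (adjusted p = 0.00167) and 3.03-fold (adjusted p = 0.000208). The immunophilin Fkbp4, which works with Hsp90 on steroid receptors, was 1.75-fold lower in L-GMP than in GMP (adjusted p = 0.00109) and 2.12-fold higher in L-GMP-derived cells than in L-GMP (adjusted p = 0.000151). The gene higher in L-GMP was Unc45a, a chaperone of myosin, at 640.3 to 835 against 397 to 497 (1.62-fold, adjusted p = 0.00499).

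Subunits of the cytosolic chaperonin TRiC were higher in L-GMP-derived cells than in L-GMP at 6 of 7 genes (85.7%, against 16.6% of all genes). The median log2 difference was 0.47. In L-GMP against GMP the median was -0.16 and 2 of 7 were lower (28.6% against 12.8%). Cct3 read 4607, 4765 and 4510.2 in GMP (1416024_x_at), 3555, 3692 and 3600.4 in L-GMP, and 5144, 5081 and 5106 in L-GMP-derived cells. The 3 groups did not overlap. Cct3 was 1.28-fold lower in L-GMP than in GMP (-0.36 ± 0.04, adjusted p = 0.000228) and 1.41-fold higher in L-GMP-derived cells than in L-GMP (0.50 ± 0.04, adjusted p = 2.39e-05). All 5 tested Cct3 probe sets were called in these directions, at up to 1.73-fold and 2.28-fold (1448178_a_at). Its rise over GMP was small (0.14 ± 0.04, adjusted p = 0.0374), and it was lost in 9 of 20 alternative settings, among them the omission of any GMP array (0.0598 to 0.14) or of L-GMP-derived replicate 2 (0.0769) or 3 (0.0896).

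Cct7 rose in L-GMP-derived cells against both other groups. It read 1252, 1218 and 1104 in GMP, 1323, 1283 and 1237 in L-GMP, and 1850.3, 1743 and 1737 in L-GMP-derived cells, where all arrays were above the rest. The folds were 1.49 over GMP (0.58 ± 0.09, adjusted p = 0.00106) and 1.39 over L-GMP (0.47 ± 0.09, adjusted p = 0.00268). Cct4 read 6118 to 6363 in GMP, 5349 to 5603 in L-GMP and 6146 to 6719 in L-GMP-derived cells, 1.14-fold lower in L-GMP than in GMP (adjusted p = 0.00893) and 1.17-fold lower than in L-GMP-derived cells (adjusted p = 0.00291). Both Cct4 calls were lost in a fit with no intensity trend (0.128 and 0.0682). Cct5, Cct8 and Tcp1 were 1.47-fold, 1.58-fold and 1.14-fold higher in L-GMP-derived cells than in L-GMP (adjusted p = 0.0148, 0.00907 and 0.0103) and passed no test against GMP. The Cct5 call was lost in 3 of 21 alternative settings, among them the omission of L-GMP replicate 1 (0.0514) or 2 (0.062). Cct2 did not pass in any comparison by its brightest probe set (6777 to 7106, 6925 to 7000.2 and 6862 to 7660.2). A dimmer Cct2 probe set, 1416037_a_at, was 1.71-fold higher in L-GMP-derived cells than in GMP (adjusted p = 0.0066).

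Prefoldin, which hands nascent actin and tubulin to TRiC, and other TRiC partners made up a list of 13 genes, 11 of them tested. In L-GMP 2 were lower than in GMP (18.2%, against 12.8% of all genes) and 0 higher, and in L-GMP-derived cells 3 were higher than in L-GMP (27.3% against 16.6%) and 0 lower. Against GMP 1 was higher and 1 lower (9.09% each, against 13.4% and 10.7%). The chaperonin subunit Cct6a, which is in this list, read 3357, 3062 and 3013 in GMP, 2231, 2173 and 2638 in L-GMP, and 3242, 3649 and 3609 in L-GMP-derived cells. Its L-GMP arrays were the lowest, 1.34-fold below GMP (adjusted p = 0.00526) and 1.49-fold below L-GMP-derived cells (adjusted p = 0.000756). The prefoldin subunit genes Pfdn6 and Pfdn2 were 1.29-fold and 1.44-fold higher in L-GMP-derived cells than in L-GMP (adjusted p = 0.00165 and 0.0134).

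All 5 mitochondrial chaperones were lower in L-GMP than in GMP (against 12.8% of all genes), with a median log2 difference of -0.92. All 5 were higher in L-GMP-derived cells than in L-GMP (against 16.6% of all genes), with a median of 1.12. Against GMP the median in L-GMP-derived cells was 0.22, and 1 of 5 passed the test as higher (20% against 13.4%). Hspd1, which encodes Hsp60, read 3584, 3839.8 and 3696 in GMP, 2394, 2496 and 2467 in L-GMP, and 4190.5, 4773 and 4790.0 in L-GMP-derived cells. The groups did not overlap. Hspd1 was 1.51-fold lower in L-GMP than in GMP (-0.60 ± 0.07, adjusted p = 0.000104), 1.87-fold higher in L-GMP-derived cells than in L-GMP (0.90 ± 0.07, adjusted p = 7.23e-06) and 1.24-fold higher there than in GMP (0.30 ± 0.07, adjusted p = 0.00695).

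Hspe1, which encodes Hsp10, the lid of the Hsp60 ring, is read from the other side of the promoter printed above for Hspd1. It read 3382, 3679 and 3607 in GMP (1450668_s_at), 1729, 2183 and 1744 in L-GMP, and 3416, 4595 and 4551 in L-GMP-derived cells. All L-GMP arrays were below all others, 1.90-fold lower than GMP (-0.92 ± 0.12, adjusted p = 0.0004) and 2.21-fold lower than L-GMP-derived cells (1.15 ± 0.12, adjusted p = 8.91e-05). The difference between L-GMP-derived cells and GMP did not pass (0.22 ± 0.12, adjusted p = 0.225), and did so without L-GMP-derived replicate 1 (0.36, adjusted p = 0.0175).

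Hspa9, the mitochondrial Hsp70 that also pulls chains through the import channel, read 1464, 1466 and 1420.4 in GMP (1418503_at), 799.6, 679 and 809.8 in L-GMP, and 1911, 1718 and 1663 in L-GMP-derived cells. It was 1.91-fold lower in L-GMP than in GMP (-0.93 ± 0.10, adjusted p = 0.000114) and 2.32-fold higher in L-GMP-derived cells than in L-GMP (1.21 ± 0.10, adjusted p = 2.1e-05). A second probe set, 1418504_at, was called in the same directions at 2.02-fold and 3.31-fold, and also as higher in L-GMP-derived cells than in GMP (1.64-fold, adjusted p = 0.00167), where the first did not pass (adjusted p = 0.0751). Another, 1453811_at, went against them and read 471, 317 and 305 in GMP, 442, 377 and 420.1 in L-GMP, and 319.9, 249.8 and 242 in L-GMP-derived cells, 1.53-fold lower than L-GMP (adjusted p = 0.0255). Trap1, the mitochondrial Hsp90, read 1899, 2060.3 and 2006 in GMP, 888, 854 and 976 in L-GMP, and 2011, 1902 and 1968 in L-GMP-derived cells. Its L-GMP arrays read less than any other array, 2.20-fold below GMP (-1.14 ± 0.09, adjusted p = 9.89e-06) and 2.17-fold below L-GMP-derived cells (1.12 ± 0.09, adjusted p = 1.15e-05), and its GMP and L-GMP-derived arrays overlapped. Dnaja3, the J-domain partner of Hspa9, read 622, 574 and 656 in GMP, 487, 421 and 402 in L-GMP, and 617, 780.2 and 759.6 in L-GMP-derived cells. It was 1.42-fold lower in L-GMP than in GMP (adjusted p = 0.0183), a call lost without GMP replicate 1 or 3 or L-GMP replicate 2 or 3, and 1.64-fold higher in L-GMP-derived cells than in L-GMP (adjusted p = 0.00241).

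The list of 12 mitochondrial co-chaperones and proteases, with 9 tested, gave 4 lower (44.4%, against 12.8% of all genes) and 0 higher in L-GMP than in GMP. In L-GMP-derived cells 6 were higher (66.7% against 16.6%) and 0 lower than in L-GMP, and 2 were higher (22.2% against 13.4%) and 0 lower than in GMP. Clpp, the proteolytic core of the matrix protease ClpXP, read 935, 889.5 and 909 in GMP, 586, 454 and 439 in L-GMP, and 855, 1198 and 1348 in L-GMP-derived cells. The L-GMP arrays were lowest, by 1.86-fold against GMP (adjusted p = 0.00366) and 2.28-fold against L-GMP-derived cells (adjusted p = 0.00062). Htra2, a protease of the intermembrane space, read 1299 to 1421 in L-GMP-derived cells, above 762 to 847 in GMP (1.71-fold, adjusted p = 0.00399) and 493 to 736 in L-GMP (2.37-fold, adjusted p = 0.000168).

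**Figure D3:**
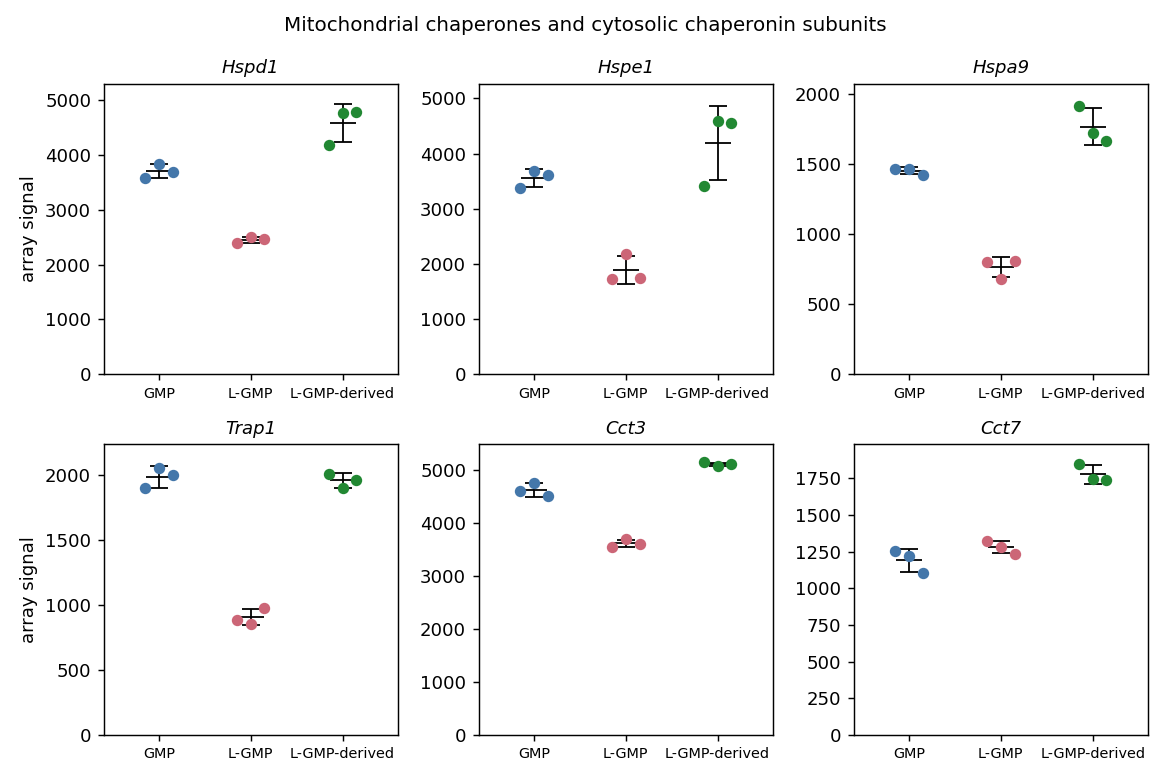
Array signal, on linear axes from 0, of the mitochondrial chaperones Hspd1, Hspe1, Hspa9 and Trap1 and the cytosolic chaperonin subunits Cct3 and Cct7. Points are single arrays and bars are mean ± SD of 3 arrays. The L-GMP points lie below the other groups for every gene except Cct7, whose L-GMP-derived points lie above both.

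ER chaperones were lower in L-GMP than in GMP at 6 of 12 tested genes (50%, against 12.8% of all genes, median log2 difference -0.41). In L-GMP-derived cells 5 were higher and 1 lower than in L-GMP (41.7% and 8.33%, against 16.6% and 14.1%, median 0.25). There, 1 was higher and 2 were lower than in GMP (8.33% and 16.7%, against 13.4% and 10.7%, median -0.15). Hspa5, which encodes BiP, the ER Hsp70 and main sensor partner of the unfolded protein response, read 5348, 6029 and 5865 in GMP (1416064_a_at), 3566, 3668 and 3868 in L-GMP, and 4943, 5418 and 4768 in L-GMP-derived cells. Every L-GMP array was below the others, 1.55-fold lower than GMP (-0.63 ± 0.06, adjusted p = 6.38e-05) and 1.36-fold lower than L-GMP-derived cells (0.45 ± 0.06, adjusted p = 0.000561). Against GMP the L-GMP-derived value lay at the threshold (-0.19 ± 0.06, adjusted p = 0.0559, and 0.0346 without GMP replicate 1 or 0.0295 without L-GMP-derived replicate 2). A second Hspa5 probe set, 1427464_s_at, was 2.42-fold lower in L-GMP and 1.69-fold lower in L-GMP-derived cells than in GMP (adjusted p = 2.13e-05 and 0.000725).

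Hyou1, the ER member of the Hsp110 family, read 3004, 3302 and 3522 in GMP (1423291_s_at), 1643, 1803 and 1557 in L-GMP, and 1835, 2082 and 2307 in L-GMP-derived cells. GMP was above both leukemic groups, by 1.96-fold over L-GMP (-0.97 ± 0.10, adjusted p = 8.03e-05) and 1.58-fold over L-GMP-derived cells (-0.66 ± 0.10, adjusted p = 0.00111). The rise between the leukemic groups was 1.24-fold (0.31 ± 0.10, adjusted p = 0.0422) and was lost in 11 of 20 alternative settings, among them the omission of GMP replicate 2 (0.0679) or 3 (0.0578), L-GMP replicate 1 (0.0942) or 3 (0.128) and L-GMP-derived replicate 2 (0.0955) or 3 (0.156). A dimmer Hyou1 probe set, 1423290_at, read 343 to 428, 396 to 437 and 337 to 356 and passed no test.

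Pdia3, the disulfide isomerase that works with calnexin and calreticulin, read 1183, 1093 and 1192 in GMP, 889.9, 592 and 872 in L-GMP, and 1158, 1282 and 1205 in L-GMP-derived cells. L-GMP was lowest, by 1.5-fold against GMP (adjusted p = 0.017) and 1.57-fold against L-GMP-derived cells (adjusted p = 0.00823), and the first call was lost in 4 of 21 alternative settings, among them the omission of GMP replicate 1 (0.054) or 3 (0.0678). Dnajb11, a J-domain partner of BiP, read 913, 913 and 923 in GMP, 761, 667 and 662 in L-GMP, and 1037, 1254 and 1181 in L-GMP-derived cells, with no overlap. It was 1.32-fold lower in L-GMP than in GMP (adjusted p = 0.0235) and 1.66-fold higher in L-GMP-derived cells than in L-GMP (adjusted p = 0.000749). Its fall in L-GMP was lost without any 1 GMP array (0.0597 to 0.0797) or without L-GMP replicate 2 (0.0756) or 3 (0.0718). Its value against GMP in L-GMP-derived cells (0.33 ± 0.11, adjusted p = 0.052) passed in 10 of 21 alternative settings, among them without L-GMP replicate 1 (0.0485) or L-GMP-derived replicate 1 (0.0136).

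Dnajb9, a J-domain protein of the ER that holds back the stress sensor Ire1, was the ER gene called lower in L-GMP-derived cells than in L-GMP. It read 1322, 1671 and 1685 in GMP, 1003, 1061 and 1042 in L-GMP, and 358, 801 and 635 in L-GMP-derived cells. The groups did not overlap and L-GMP-derived replicate 1 was the lowest array. Dnajb9 was 2.74-fold lower in L-GMP-derived cells than in GMP (-1.45 ± 0.24, adjusted p = 0.00176) and 1.83-fold lower than in L-GMP (-0.87 ± 0.24, adjusted p = 0.0208). The second call was lost in 4 of 21 alternative settings, among them the omission of L-GMP replicate 2 (0.0634) or 3 (0.0553). Its difference in L-GMP against GMP (-0.58 ± 0.24, adjusted p = 0.108) passed without L-GMP-derived replicate 1 (0.00457).

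Hsp90b1, which encodes Grp94, the ER Hsp90, read 4222, 3948 and 3788 in GMP (1438040_a_at), 3204, 3260.4 and 2962 in L-GMP, and 4069.9, 3211 and 3099 in L-GMP-derived cells. L-GMP lay 1.27-fold below GMP (adjusted p = 0.0261), a call lost in 9 of 20 alternative settings, among them the omission of any GMP array (0.0521 to 0.0922) or of L-GMP replicate 1 (0.0547) or 3 (0.0889). Its other probe set, 1415889_a_at, read 2056 to 2397 in GMP and 2052 to 2433 in L-GMP and was not called. Without L-GMP-derived replicate 1, the brighter Hsp90b1 probe set was also lower in L-GMP-derived cells than in GMP (-0.34, adjusted p = 0.00377). On all arrays 1415889_a_at went the other way there, at 2278 to 2894 in L-GMP-derived cells, and was not called against GMP (0.25, adjusted p = 0.125). Dnajc3, which encodes a co-chaperone of BiP that also inhibits the kinase Perk, read 1382, 1238 and 1398 in GMP, 957, 841 and 957 in L-GMP, and 1066, 1163 and 1014 in L-GMP-derived cells. It was 1.46-fold lower in L-GMP than in GMP (adjusted p = 0.0037), and another of its probe sets, 1419162_s_at, was lower than GMP in both leukemic groups (1.73-fold and 2.09-fold, adjusted p = 0.0021 and 0.000372).

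P4hb, which encodes protein disulfide isomerase, was the ER chaperone that rose in L-GMP-derived cells against GMP. It read 5163, 5431 and 5188 in GMP, 4994, 4823 and 5247 in L-GMP, and 5935, 5922 and 6211 in L-GMP-derived cells, where all arrays were above the rest, by 1.14-fold over GMP (0.20 ± 0.05, adjusted p = 0.0108) and 1.20-fold over L-GMP (0.26 ± 0.05, adjusted p = 0.00166). The P4hb call against GMP was lost in 2 of 20 alternative settings, among them a fit with no intensity trend (0.122). The lectin chaperones Calr and Canx and the disulfide isomerases Pdia4 and Pdia6 passed no test by their brightest probe sets, and a dimmer Canx probe set, 1428935_at, was 1.35-fold lower in L-GMP-derived cells than in GMP (adjusted p = 0.0461). Calr read 6087 to 6428 in GMP, 5319 to 6378 in L-GMP and 5721 to 5858 in L-GMP-derived cells, and Canx 3332 to 3719, 2836 to 3401 and 2980.4 to 3207. Pdia6 read 981 to 1347, 726 to 1023 and 1012 to 1468, and Pdia4 306 to 386, 369 to 506 and 322 to 365. The promoter windows of Calr, Canx and Pdia6 hold the same ER stress element as those of Hspa5, Hsp90b1 and Dnajc3.

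**Figure D4:**
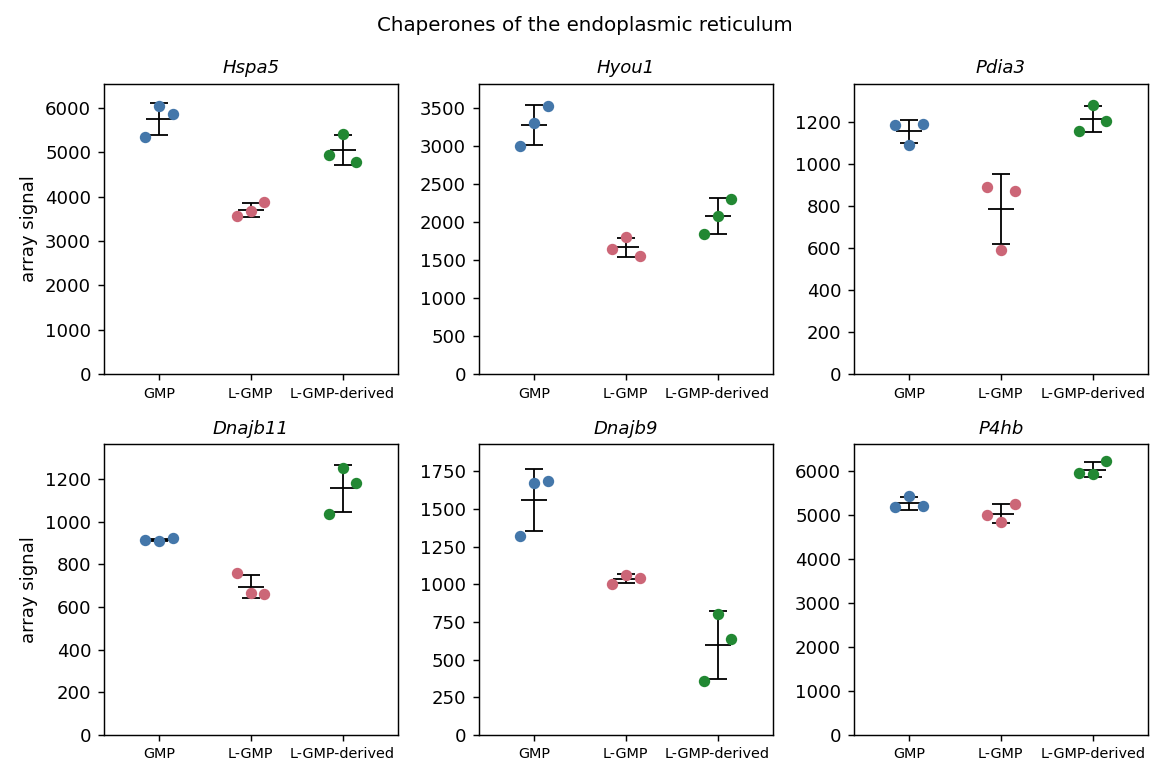
Array signal, on linear axes from 0, of the ER chaperones Hspa5, Hyou1, Pdia3, Dnajb11, Dnajb9 and P4hb. Points are single arrays and bars are mean ± SD of 3 arrays. L-GMP is lowest for Hspa5, Hyou1, Pdia3 and Dnajb11, L-GMP-derived cells are lowest for Dnajb9 and highest for P4hb.

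Other genes of the unfolded protein response and of ER folding, a list of 29 with 27 tested, gave calls in both directions. In L-GMP 4 were higher and 6 lower than in GMP (14.8% and 22.2%, against 13.1% and 12.8% of all genes). In L-GMP-derived cells 6 were higher and 2 lower than in GMP (22.2% and 7.41%, against 13.4% and 10.7%), and 9 were higher and 3 lower than in L-GMP (33.3% and 11.1%, against 16.6% and 14.1%). Pdia5, a disulfide isomerase, read 612, 536 and 518 in GMP, 22.8, 85.1 and 149.6 in L-GMP, and 306, 258 and 246 in L-GMP-derived cells. It was at least 5.98-fold lower in L-GMP than in GMP (adjusted p = 5.96e-05), 2.06-fold lower in L-GMP-derived cells than in GMP (adjusted p = 0.0143) and at least 2.90-fold higher there than in L-GMP (adjusted p = 0.0014). Edem1, which marks misfolded glycoproteins for degradation, was 2.12-fold higher in L-GMP than in GMP (1241 to 1495 against 594 to 764, adjusted p = 0.000417) and 1.74-fold lower in L-GMP-derived cells than in L-GMP (adjusted p = 0.00232). The oxidase Ero1b, which recharges disulfide isomerases, fell from 649.5 to 689 in GMP to 369.6 to 397 in L-GMP and 236 to 319 in L-GMP-derived cells, 1.75-fold and 2.47-fold below GMP (adjusted p = 0.00107 and 4.85e-05). Its relative Ero1a went the other way, at 1388 to 1494, 1660.0 to 1815 and 2445 to 2687 (1.21-fold and 1.78-fold above GMP, adjusted p = 0.0275 and 4.17e-05).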

How the data were processed

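The authors deposited 1 table of array intensity values, a linear signal per probe set and array. The submitters' processing notes name MAS5 (version 5), and the sources used here do not give the scaling target or summary step. Since 0.939% of values are negative, which the MAS5 signal algorithm does not give, how the table was made is not settled. Their scaling was kept, since trimmed means lay within 4.02% of each other's mean. Signals under 62.4 (25th percentile) were raised to that floor before log2 transformation. Probe sets above 111 (40th percentile) on at least 3 of 9 arrays were tested, 14578 in all without 64 control probe sets. They stood for 8965 genes, named from the platform annotation where it gave 1 symbol (20393 of 22690 probe sets). Limma 3.58.1 in R 4.3.3 (lmFit, eBayes with an intensity trend, 6 residual degrees of freedom) fitted all 9 arrays, two-sided, with Benjamini-Hochberg adjustment per comparison and a threshold of 0.05. The fit was tested on simulated data. A gene stands for its brightest tested probe set, and folds are between mean log2 signals. Values were given in full for 24 genes: fixed ones, up to 3 called members of each class with the largest change, and those with opposed probe sets. Other members given array by array were picked after their values were seen. Of each other list up to 3 called genes per comparison were named. Members, lists and rules were chosen with earlier results of these data known. Promoters were searched with Python 3.11.15. Alternatives were array scaling, floor, filter, intensity trend, arrays fitted, array weights, probe set choice, a replicate block and leaving out each array.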

Additional observations from a re-analysis of the deposited data

How the results depend on the processing

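Of 1473 values of 24 chaperones under 21 alternative settings, 1338 kept their side of the threshold, 88 lost a call and 46 gained one. Only 1 changed sign with a call in either fit (Hspa4 in L-GMP-derived cells against GMP, 0.25 with the mean over its probe sets). Changes of sign with no call in either fit are among the 1338. Trap1 in L-GMP-derived cells against GMP, at -0.020, ran from -0.055 to 0.086 in the alternatives. For L-GMP against GMP the 0 higher genes became 1, Hspa2, with the 6 compared arrays alone and 1 with array weights (0 to 1 with single arrays left out). The 19 lower ones became 12 without probe sets named with a letter before _at, where 31 members were tested. These lettered sets are the _s_at and _x_at ones, whose names mark shared binding, and also _a_at ones, among them both Hsph1 probe sets. The 19 became 12 with the replicate block and 26 with weights (13 to 23 with single arrays left out). Against GMP the 4 genes higher in L-GMP-derived cells became 16 with weights, 7 with the mean over probe sets, 2 with the block and 3 to 11 with single arrays left out. The 7 lower ones became 13 with weights and 4 to 9. Against L-GMP the 20 higher became 13 without the lettered probe sets, where fewer members were tested (17 to 21 with single arrays left out). The 3 lower became 1 without the filter, 1 with the compared arrays alone and 1 to 4 with single arrays left out. Deviations of same-numbered arrays from their group means correlated at -0.31 to 0.17, and those of other pairs from different groups at -0.18 to 0.30. With 3 arrays a group these values cannot show whether the replicate numbers pair the arrays. Without GMP replicate 2 or 3, Dnajb4 was represented by its other probe set; the cause of the other shifts was not tested. Few arrays and signals near the floor limit the precision.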
